A study of Homo sapiens with 16 samples.

Results

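The genes described here are targets and mediators of bone morphogenetic protein (BMP) signaling: the inhibitors of DNA binding ID1, ID2, ID3 and ID4, the receptor-activated SMAD proteins SMAD1, SMAD5 and SMAD9, the inhibitory SMAD6, and the membrane protein gene TMEM100. They were chosen by gene symbol as members of the pathway, and all 9 are among the 59428 genes of the count table. The libraries came from 2 human lines of serous ovarian carcinoma, BRCA1 wild-type OVCAR3 and BRCA1-mutated UWB1.289, each harvested after 96 h with the PARP inhibitor olaparib or with its solvent DMSO. PARP enzymes act in the repair of DNA strand breaks. The olaparib concentration was 7.5 µM for OVCAR3 and 3.5 µM for UWB1.289, the concentration determined for each line as its IC50 over that time. There were 4 groups with 4 replicates each, 16 libraries in all. The experiment was described as repeated 4 times, without more detail on the cultures, so the p-values measure the spread between these samples. Each BRCA1 status was represented by a single line, and OVCAR3 was grown in RPMI1640 with serum and insulin but UWB1.289 in a mixture of MEGM and RPMI1640 with less serum. Differences between the lines in BRCA1 status, concentration and medium therefore cannot be told apart.

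BMP ligands bind pairs of type I and type II serine/threonine kinase receptors, which phosphorylate SMAD1, SMAD5 and SMAD9. These SMADs join SMAD4, enter the nucleus and raise the transcription of the ID genes, of SMAD6 and, in endothelium, of TMEM100. ID proteins bind E proteins and keep them from DNA, SMAD6 feeds back on the receptors and on SMAD1, and the pathway is active in the ovarian surface epithelium and in ovarian carcinoma cells.

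The reads came from the 3' ends of transcripts, as the libraries were of the QuantSeq type, and the authors deposited whole-number counts per gene. The libraries held between 5599571 and 7730228 counts. Levels are given below as CPM, which are counts scaled to a common library total, with TMM normalization over all 16 libraries, and mean levels as mean ± SD with n = 4. A gene passed the test where its p-value from edgeR's quasi-likelihood test, adjusted by the Benjamini-Hochberg method over all genes tested, was below 0.1. The stricter rule of the study also asked for a change beyond 2-fold and an average count above 10. All 9 genes passed the filter on low counts in every comparison. Log2 fold changes carry a standard error (SE), computed as the absolute log2 fold change over the square root of the test's F value. This SE can be too small for large changes at low counts. Epithelial and serous carcinoma markers were expressed in both lines, with a summed level over 7 genes between 3943 and 4214 CPM in OVCAR3 with DMSO and between 7351 and 7966 CPM in UWB1.289 with DMSO. WT1, one of these 7, had no count in UWB1.289 with DMSO. The sum was 2465 to 2756 CPM in OVCAR3 and 5768 to 7102 CPM in UWB1.289 with olaparib, and its part in the results was not tested. KRT18 and KRT8 had the highest levels of the 7 in OVCAR3 with DMSO. With olaparib they fell there by 1.02 and 1.05 on the log2 scale. WT1, MUC16 and EPCAM fell by less, KRT7 rose and PAX8 did not pass the test. In UWB1.289 with DMSO the keratins KRT18, KRT7 and KRT8 had the highest levels. Markers of other cell types were low: the summed level of 3 genes each reached at most 13.6 CPM for leukocytes, 10.03 CPM for endothelium and 38.7 CPM for fibroblasts in any library. In OVCAR3 the leukocyte and endothelial sums reached at most 0.49 and 2.60 CPM. In UWB1.289 they ran from 5.66 to 13.6 and from 5.26 to 10.03 CPM, above every library of SMAD9 and TMEM100 in that line. In OVCAR3 the fibroblast sum was between 21.3 and 30.3 CPM with DMSO and between 30.3 and 38.7 CPM with olaparib. It was mostly COL1A1, and COL3A1 was at 0 in every library. In bulk RNA, fewer cells of a type and less RNA per cell cannot be told apart.

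Upstream regulatory sequence is shown for some of the genes that rose in OVCAR3 (ID1, ID3, ID4 and SMAD6). SMAD1, which did not pass the test there, is shown beside them. ID2 and SMAD9 also rose and are not printed. The 250 bases before the RefSeq start of each gene shown are printed 5′ to 3′ along the gene, from the assembly GRCh38.p14. These 5 genes were chosen after their values were seen. The table of promoters matched 8 of the 9 genes, and TMEM100 was not matched. The windows were ID1 at chr20:31605039-31605288 (plus strand), ID3 at chr1:23559502-23559751 (minus strand), ID4 at chr6:19837120-19837369 (plus strand), SMAD6 at chr15:66701986-66702235 (plus strand) and SMAD1 at chr4:145482555-145482804 (plus strand). Capitals mark the letters GGCGCC, a GC-rich element that BMP-activated SMADs can bind, and CAGAC, the SMAD binding element, searched on both strands.
ID1: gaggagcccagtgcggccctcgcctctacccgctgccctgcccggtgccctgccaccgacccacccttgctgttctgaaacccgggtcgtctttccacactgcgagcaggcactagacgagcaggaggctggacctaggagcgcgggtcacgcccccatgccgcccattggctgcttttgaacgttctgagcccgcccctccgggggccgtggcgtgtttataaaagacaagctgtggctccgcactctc
ID3: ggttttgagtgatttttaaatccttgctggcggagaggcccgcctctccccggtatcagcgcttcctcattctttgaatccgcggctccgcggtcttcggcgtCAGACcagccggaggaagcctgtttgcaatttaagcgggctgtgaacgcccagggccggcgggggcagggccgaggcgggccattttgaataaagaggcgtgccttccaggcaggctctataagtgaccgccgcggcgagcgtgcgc
ID4: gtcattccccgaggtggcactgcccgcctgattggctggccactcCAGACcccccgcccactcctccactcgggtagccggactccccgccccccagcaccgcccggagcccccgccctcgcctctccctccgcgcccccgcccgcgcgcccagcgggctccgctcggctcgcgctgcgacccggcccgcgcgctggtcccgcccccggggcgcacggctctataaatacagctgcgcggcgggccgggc
SMAD6: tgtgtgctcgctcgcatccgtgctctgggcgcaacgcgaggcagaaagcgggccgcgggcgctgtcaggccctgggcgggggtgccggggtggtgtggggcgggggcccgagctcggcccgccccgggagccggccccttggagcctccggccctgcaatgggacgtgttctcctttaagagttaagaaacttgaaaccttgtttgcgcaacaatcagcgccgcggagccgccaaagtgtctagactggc
SMAD1: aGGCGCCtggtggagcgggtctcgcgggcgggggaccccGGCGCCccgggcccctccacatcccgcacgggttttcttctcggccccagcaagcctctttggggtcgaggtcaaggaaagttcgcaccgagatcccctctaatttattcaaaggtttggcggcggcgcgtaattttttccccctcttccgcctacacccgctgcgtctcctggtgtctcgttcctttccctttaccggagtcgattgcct

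Within these windows GGCGCC was found in SMAD1, at 249 and 211 bases before the RefSeq start used, and in none of the other 7 matched genes. It is present in 16.4% of the 35116 promoter windows of the same length. CAGAC was found 147 bases before the start of ID3 and 205 bases before that of ID4, and in 38% of all windows. The composite GGCGCCNNNNNGTCT, which holds the first of these motifs, was in none of the 8 and in 0.0769% of all windows. Sequence outside these 250 bases was not searched, so absence from a window does not mean that the gene lacks such an element. The E-box CANNTG, the letters that E proteins and their partners bind, was found once each in the windows of ID2, ID4, SMAD5 and SMAD9 and in 61.8% of all windows, and it overlapped neither of the marked motifs in these windows.

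The first comparison asked how olaparib changed these genes in the BRCA1 wild-type line. In OVCAR3, 6 of the 9 genes rose (ID1, ID2, ID3, ID4, SMAD6 and SMAD9), TMEM100 fell, and SMAD1 and SMAD5 did not pass the test. The rises lay between 1.35-fold for ID1 and 3.08-fold for SMAD9, and TMEM100 fell by 1.44 on the log2 scale. Of all 13031 genes tested, 15.5% were higher and 16% lower at the same threshold. The median log2 fold change was 0.57 over the 9 genes and -0.01 over all genes tested.

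The 4 ID genes encode helix-loop-helix proteins that lack a DNA-binding region and hold E proteins in inactive pairs. ID1 (chr20:31605283-31606515, plus strand, GRCh38, GENCODE 44 as for the positions that follow) was at 330.4, 404, 369 and 362 CPM in replicates 1 to 4 of OVCAR3 with DMSO and at 534, 507, 556 and 369.6 CPM with olaparib. Replicates 1 to 3 with olaparib lay above every DMSO library, and replicate 4 lay inside the DMSO range, so the groups overlapped. The mean rose from 366 ± 30.3 to 492 ± 83.8 CPM, a log2 fold change of 0.43 (SE 0.101, adjusted p = 0.00401, edgeR).

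ID2 (chr2:8678845-8684461, plus strand) was at 206, 249.9, 250.5 and 228 CPM with DMSO and at 322, 365, 341 and 359 CPM with olaparib. All olaparib libraries were above all DMSO libraries. Its fitted log2 fold change was 0.57 (SE 0.0777, adjusted p = 1.67e-05, edgeR). ID2-AS1, a gene on the opposite strand that overlaps ID2, had 281 counts in all over the DMSO libraries and 351 over the olaparib libraries, against 6013 and 9441 for ID2. Whether the counting used strand is not given in the sources used here, so reads of ID2 and ID2-AS1, and those of ID4 and its opposite-strand neighbour LNC-LBCS, cannot be told apart where they overlap.

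ID3 (chr1:23557926-23559501, minus strand) was at 82.8, 92.0, 83.6 and 90.4 CPM with DMSO and at 157, 171, 179.6 and 102 CPM with olaparib. The groups did not overlap, with replicate 4 again the lowest of the olaparib libraries. On the log2 scale the change was 0.81 (SE 0.125, adjusted p = 7.12e-05, edgeR).

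ID4 (chr6:19837370-19842197, plus strand) was at 25.6, 25.0, 36.8 and 29.9 CPM with DMSO and at 50.2, 58.2, 57.4 and 44.2 CPM with olaparib. The groups did not overlap. The log2 fold change was 0.84 (SE 0.128, adjusted p = 6.32e-05, edgeR). LNC-LBCS held 24 counts over the DMSO libraries and 46 over the olaparib libraries, against 762 and 1425 for ID4.

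SMAD1 and SMAD5 carry the signal from the receptors to the nucleus. SMAD1 (chr4:145481194-145559176, plus strand) had means of 46.5 ± 3.59 CPM with DMSO and 49.0 ± 4.42 CPM with olaparib. SMAD5 (chr5:136132845-136188747, plus strand) had means of 63.1 ± 5.54 and 61.8 ± 4.18 CPM. The groups overlapped for both genes. The log2 fold change of SMAD1 was 0.08 (SE 0.0998, 95% interval -0.13 to 0.29, adjusted p = 0.613, edgeR) and that of SMAD5 was -0.03 (SE 0.0920, 95% interval -0.22 to 0.17, adjusted p = 0.872, edgeR).

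SMAD6 (chr15:66702236-66782849, plus strand), which competes with the receptor-activated SMADs and recruits ubiquitin ligases to the receptors, was at 25.2, 32.5, 29.6 and 31.3 CPM with DMSO and at 51.0, 50.3, 49.7 and 43.7 CPM with olaparib. All 4 olaparib libraries were above all DMSO libraries, and 3 of them lay close together with replicate 4 below. With olaparib it rose by 0.72 on the log2 scale (SE 0.107, adjusted p = 4.90e-05, edgeR).

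SMAD9 (chr13:36844831-36920887, minus strand), the third receptor-activated SMAD of the BMP branch, had a low count in OVCAR3 with DMSO, with 24, 22, 17 and 22 counts in the 4 libraries. With olaparib it had 71, 79, 59 and 69 counts. These correspond to means of 3.35 ± 0.696 and 10.3 ± 1.73 CPM, and the groups did not overlap. Its fitted log2 fold change was 1.62 (SE 0.223, adjusted p = 1.89e-05, edgeR).

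TMEM100 (chr17:55719627-55732121, minus strand), a small membrane protein gene induced by BMP ligands through ALK1 in endothelial cells, was the member that fell. It was at 222, 215, 219.7 and 216 CPM with DMSO and at 69.1, 82.7, 90.2 and 78.6 CPM with olaparib. The 4 DMSO libraries lay within a narrow range, and every olaparib library was below all of them. The log2 fold change was -1.44 (SE 0.0834, adjusted p = 2.45e-10, edgeR). Of the 13031 genes tested, 86 had a lower log2 fold change than TMEM100.

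**Figure D1:**
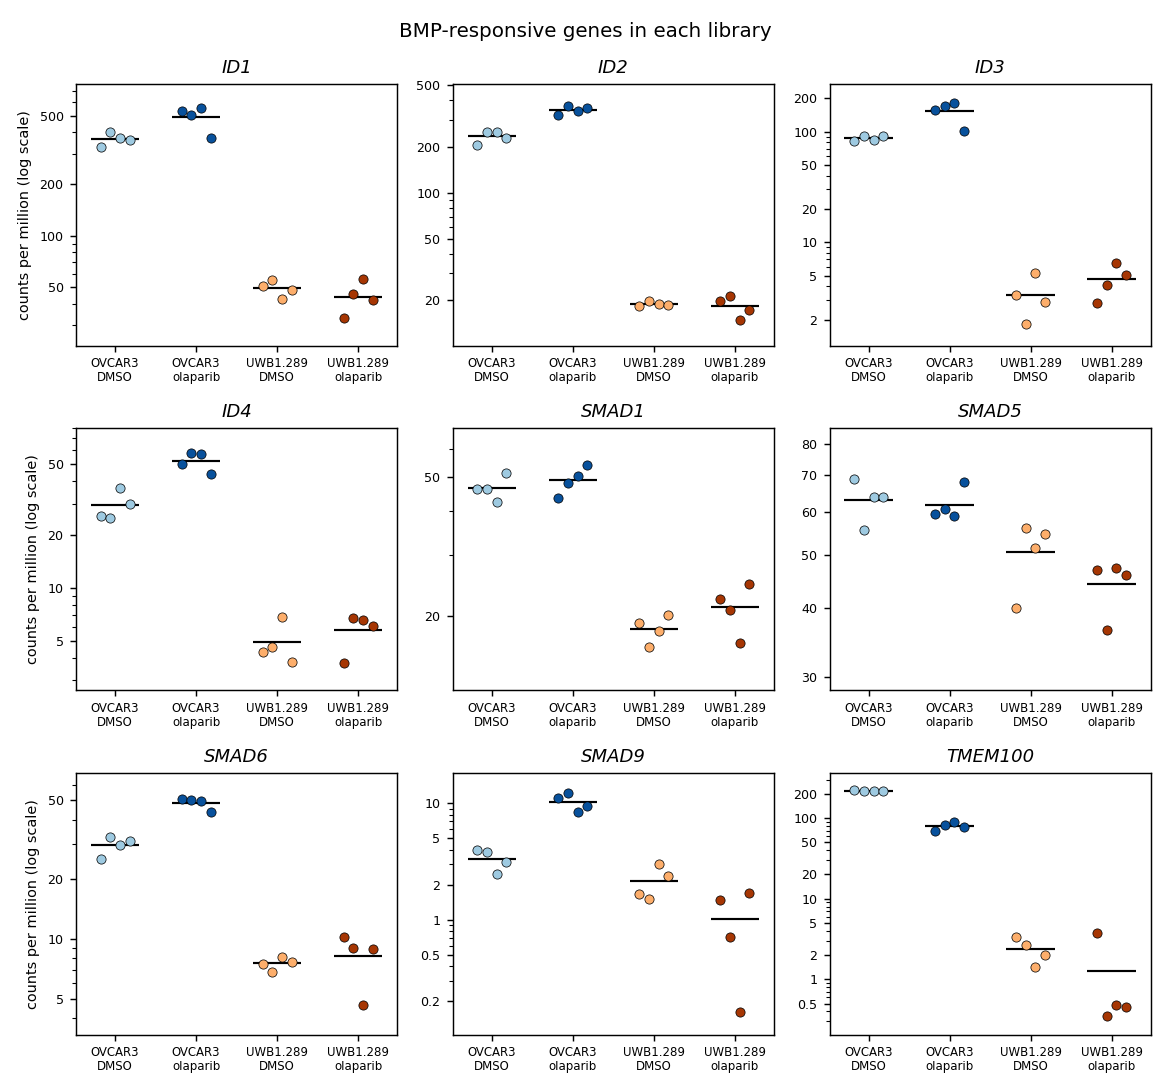
Level of each of the 9 genes in each library, in CPM on a log axis whose range differs between panels. Points are libraries in the order of replicates 1 to 4 and lines are group means. In OVCAR3 the olaparib libraries of ID2, ID3, ID4, SMAD6 and SMAD9 sit above and those of TMEM100 below all DMSO libraries, and in UWB1.289 the groups overlap for all 9 genes.

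Only SMAD9 and TMEM100 also met the stricter rule in OVCAR3, which 2.90% of all genes tested met as higher and 2.33% as lower. A gap between the groups was found for 6 of the 9 genes (ID2, ID3, ID4, SMAD6, SMAD9 and TMEM100), against 25.7% of all genes tested. Replicate 4 was the lowest olaparib library for ID1, ID3, ID4 and SMAD6 and the second highest for ID2. Without it, the log2 fold changes were 0.54 for ID1, 0.96 for ID3, 0.91 for ID4 and 0.77 for SMAD6. All 7 calls in OVCAR3 were kept when any single library was left out.

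The same comparison was made in the BRCA1-mutated line. In UWB1.289 none of the 9 genes passed the edgeR test, and the groups overlapped for all 9. At an unadjusted p below 0.05 the edgeR test counted 1 of them, SMAD9, and DESeq2 also counted 1 at that level and 0 after adjustment. Of all 12748 genes tested, 7.77% were higher and 6.10% lower, 1.93% and 0.282% under the stricter rule, and the groups did not overlap for 14.7%. The median log2 fold change was -0.04 over the 9 genes and -0.004 over all genes tested.

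ID1 was at 51.0, 55.4, 42.8 and 48.2 CPM in UWB1.289 with DMSO and at 32.9, 45.6, 55.7 and 42.3 CPM with olaparib. The highest and the lowest of the 8 libraries were both olaparib libraries. Its fitted log2 fold change was -0.16 (SE 0.130, 95% interval -0.43 to 0.11, adjusted p = 0.511, edgeR).

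ID2 was at 18.5, 19.8, 18.8 and 18.6 CPM with DMSO and at 19.9, 21.3, 14.9 and 17.3 CPM with olaparib. The olaparib libraries spread to both sides of the DMSO libraries. Its fitted log2 fold change was -0.04 (SE 0.136, 95% interval -0.33 to 0.24, adjusted p = 0.891, edgeR).

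ID3 and ID4 were at low counts in this line, from 11 to 41 and from 23 to 43 per library. Mean levels of ID3 were 3.32 ± 1.43 CPM with DMSO and 4.62 ± 1.59 CPM with olaparib, and those of ID4 were 4.92 ± 1.33 and 5.80 ± 1.37 CPM. The 95% intervals of the log2 fold changes, -0.18 to 1.15 for ID3 and -0.28 to 0.77 for ID4, included the values found in OVCAR3 for ID3 but not for ID4.

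SMAD1, SMAD5 and SMAD6 had log2 fold changes of 0.20 (SE 0.138), -0.19 (SE 0.117) and 0.12 (SE 0.219) in UWB1.289, with edgeR adjusted p-values of 0.415, 0.357 and 0.799. SMAD6 was at 7.52, 6.83, 8.12 and 7.64 CPM with DMSO and at 10.2, 9.05, 4.64 and 8.86 CPM with olaparib. The 3 higher olaparib libraries lay above the DMSO range and the fourth below it.

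SMAD9 had 11, 9, 19 and 18 counts with DMSO and 9, 4, 1 and 11 counts with olaparib. Its mean was 2.14 ± 0.704 CPM with DMSO and 1.01 ± 0.704 CPM with olaparib, and the ranges overlapped. The log2 fold change was -1.06 (SE 0.467, 95% interval -2.03 to -0.09, unadjusted p = 0.0339, adjusted p = 0.170, edgeR), the opposite sign to that in OVCAR3.

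TMEM100 had 22, 16, 9 and 15 counts with DMSO and 23, 2, 3 and 3 counts with olaparib. Replicate 1 with olaparib held more counts than any other library of this line, and the other 3 olaparib libraries lay below all DMSO libraries. On the log2 scale the fitted difference was -0.87 (SE 0.544, adjusted p = 0.361, edgeR). Without olaparib replicate 1 it was -2.38, with an edgeR adjusted p of 0.00504, so this one library decided whether TMEM100 passed the test. DLX5, another BMP-responsive gene, had 23 of its 42 counts over the 4 olaparib libraries in that library. Other genes did not share this. ID1, ID3 and ID4 were at their lowest olaparib level in that library, at 32.9, 2.80 and 3.79 CPM. SMAD6 was at its highest, at 10.2 CPM, and ID2, SMAD1, SMAD5 and SMAD9 were at neither end.

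**Figure D2:**
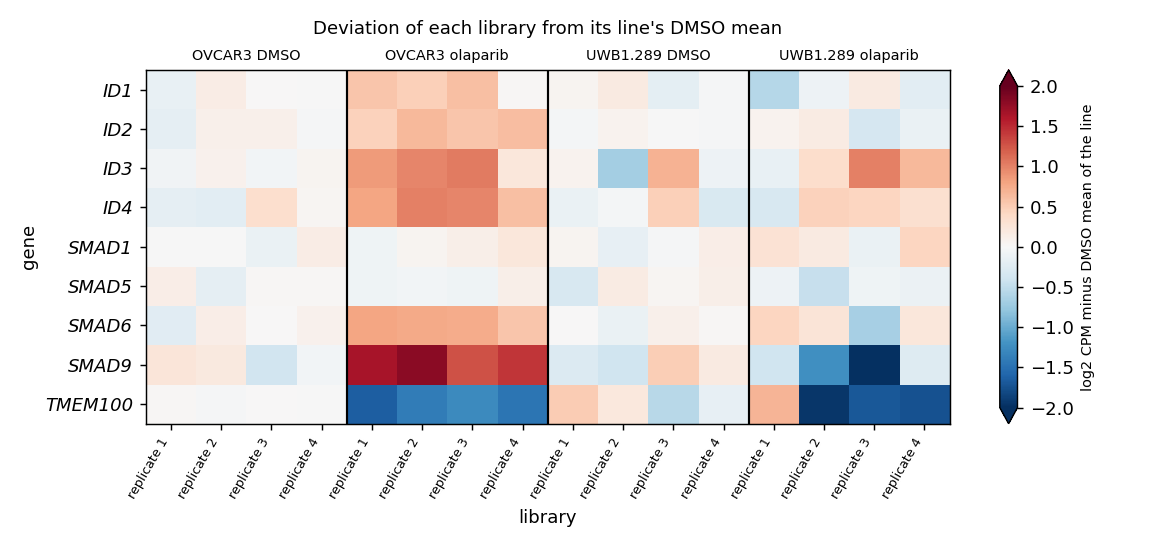
Deviation of each library from the mean of its line's DMSO libraries, in log2 CPM with a prior count of 2, for the 9 genes (rows) in the 16 libraries (columns). Colours saturate at -2 and 2, and SMAD9 in UWB1.289 olaparib replicate 3 lies past that end at -2.34. In OVCAR3 with olaparib TMEM100 is blue and the ID genes, SMAD6 and SMAD9 are red, except ID1 in replicate 4, which is near white at 0.016, while in UWB1.289 with olaparib TMEM100 deviates by 0.68 in replicate 1 and by -1.95 to -1.70 in the others.

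Whether the response differed between the lines was tested as the interaction over all 16 libraries, as the effect in UWB1.289 minus that in OVCAR3. It passed for ID1, ID2 and SMAD9, all 3 with a lower effect in UWB1.289. Among all 14243 genes tested, 5.83% had a lower and 5.09% a higher effect in UWB1.289. The difference was -0.58 for ID1 (SE 0.173, adjusted p = 0.0351, edgeR) and -0.61 for ID2 (SE 0.140, adjusted p = 0.00505, edgeR). For SMAD9 it was -2.68 (SE 0.498, adjusted p = 6.04e-04, edgeR), and SMAD9 alone met the stricter rule.

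For the other 6 genes the difference did not pass the test. That of SMAD6 was -0.60 (SE 0.225, 95% interval -1.06 to -0.14, adjusted p = 0.111, edgeR), and it passed with DESeq2 at an adjusted p of 0.0683, with no filter on low counts at 0.0992, and without UWB1.289 olaparib replicate 1 at 0.0515 or OVCAR3 olaparib replicate 4 at 0.0763. ID4 had a difference of -0.59 (SE 0.267, 95% interval -1.13 to -0.04, adjusted p = 0.199, edgeR). The intervals for ID3, from -1.0 to 0.36, and for TMEM100, from -0.43 to 1.57, were wide, and without UWB1.289 olaparib replicate 1 the difference for TMEM100 was -0.94 (adjusted p = 0.230, edgeR). For SMAD1 they ran from -0.22 to 0.46 and for SMAD5 from -0.47 to 0.15.

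**Figure D3:**
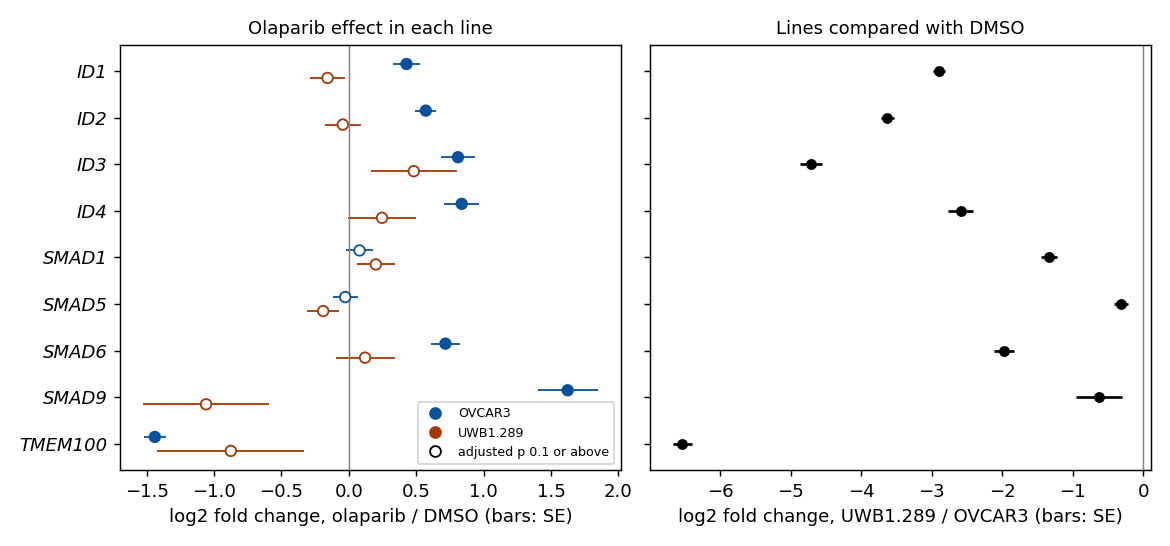
Log2 fold changes of the 9 genes with SE bars for olaparib against DMSO in each line (left, open symbols did not pass the test) and for UWB1.289 against OVCAR3 with DMSO (right). SMAD9 lies at 1.62 in OVCAR3 and -1.06 in UWB1.289, and TMEM100 lies lowest in the comparison of the lines at -6.53.

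The lines were also compared without the drug, on the DMSO libraries that the comparisons above share. All 9 genes were lower in UWB1.289 than in OVCAR3, where 40.1% of 13366 genes tested were lower and 39.8% higher. The groups did not overlap for ID1, ID2, ID3, ID4, SMAD1, SMAD6 and TMEM100, against 69.4% of all genes tested, and these 7 genes also met the stricter rule, as did 19.7% of all genes in this direction. The median log2 fold change was -2.59 over the 9 genes and -0.02 over all genes tested.

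TMEM100 was 92.6-fold lower, at 218 ± 3.25 CPM in OVCAR3 and 2.35 ± 0.816 CPM in UWB1.289, with a log2 fold change of -6.53 (SE 0.131, adjusted p = 6.19e-27, edgeR). That SE is too small for a gene with 62 counts in all over the UWB1.289 DMSO libraries. Among the ID genes the fold was 26.2 for ID3, from 87.2 ± 4.70 to 3.32 ± 1.43 CPM, 12.4 for ID2, from 234 ± 21.0 to 18.9 ± 0.607 CPM, 7.44 for ID1 and 6.02 for ID4. SMAD6 was 3.94-fold and SMAD1 2.52-fold lower.

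SMAD5 and SMAD9 were nearest to equal in the lines. SMAD5 was 1.25-fold lower in UWB1.289, with a log2 fold change of -0.32 (SE 0.101, adjusted p = 0.00501, edgeR) and ranges that overlapped. SMAD9 was 1.55-fold lower, with a log2 fold change of -0.63 (SE 0.327, 95% interval -1.30 to 0.04, adjusted p = 0.0800, edgeR). That call was lost with DESeq2 (adjusted p = 0.116), with no filter (0.142) and with the replicate number as a block (0.123). It was also lost without any one of 5 libraries, with edgeR adjusted p between 0.103 and 0.213. These were UWB1.289 DMSO replicates 1, 2 and 4 and OVCAR3 DMSO replicates 1 and 2. Same-numbered DMSO libraries of the lines hardly deviated together (r between 0.00719 and 0.0218), so the block does not stand for pairs seen in the data here.

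The order of the 4 groups differed between genes. For ID2, ID3, ID4, SMAD6 and SMAD9 the highest mean was in OVCAR3 with olaparib, followed by OVCAR3 with DMSO, and then both groups of UWB1.289, whose ranges overlapped. The same order held for ID1, whose OVCAR3 groups overlapped, and the DMSO ranges of SMAD9 overlapped between the lines. For TMEM100 the order of the OVCAR3 groups was turned, and its lowest OVCAR3 library, at 69.1 CPM, was above the highest library of UWB1.289, at 3.79 CPM. For SMAD1 the ranges of both OVCAR3 groups overlapped and lay above both groups of UWB1.289. For SMAD5 the groups overlapped within each line, and every OVCAR3 olaparib library lay above every DMSO library of UWB1.289.

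The other genes of the pathway were taken from lists of ligands, receptors, antagonists, inhibitors, SMADs, targets and E proteins, 58 genes in all, each present in the count table. In OVCAR3, 37 were tested, of which 9 were higher, 14 lower and 14 did not pass the test, against 15.5% higher and 16% lower of all genes tested, and the median log2 fold change was -0.06 for the list and -0.01 for all genes. In UWB1.289, 36 were tested, of which 4 were higher, 4 lower and 28 did not pass the test, against 7.77% higher and 6.10% lower of all genes. Between the lines with DMSO, 41 were tested, of which 15 were higher and 23 lower in UWB1.289, against 39.8% higher and 40.1% lower of all genes. The effect of olaparib differed for 9 of 43, with 4 higher and 5 lower, against 5.09% and 5.83% of all genes. The interaction was positive for TCF4 (1.22, edgeR adjusted p = 1.89e-05), CTDSP1 (0.47, edgeR adjusted p = 0.0314), NOG and CHRDL1. It was negative for ENG (-1.26, edgeR adjusted p = 0.0460), SMAD7 (-1.26, edgeR adjusted p = 0.0800), SMURF2 (-0.39, edgeR adjusted p = 0.0344), SKI and SMAD3.

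Of the 13 BMP ligands, 3 were tested in OVCAR3 and 2 of them fell. BMP7 was at 677 ± 22.0 CPM with DMSO and 272 ± 19.8 CPM with olaparib, and its fitted change was -1.31 on the log2 scale (SE 0.0715, adjusted p = 1.33e-10, edgeR). BMP3, a ligand that can oppose the others, fell by 2.88 on the log2 scale (SE 0.370, adjusted p = 8.80e-06, edgeR). BMP4 was at 14.2 ± 3.02 and 12.1 ± 1.77 CPM and did not pass the test. In UWB1.289 no ligand of the 4 tested passed the test with olaparib in the fit without pairing. With the replicate number as a block, BMP2 passed, with a log2 fold change of 0.66 (SE 0.258, adjusted p = 0.0984, edgeR) in place of an adjusted p of 0.131. The lines also differed in their ligands with DMSO. BMP7 had 2 counts in all over the 4 DMSO libraries and 0 over the 4 olaparib libraries, while BMP4 was at 85.9 ± 10.4 CPM with DMSO, a log2 fold change of 2.60 over OVCAR3 (SE 0.124, adjusted p = 8.76e-18, edgeR). BMP2 had 0 counts in every OVCAR3 library and 16 to 45 counts in the libraries of UWB1.289.

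Of 11 receptors and co-receptors, 8 were tested in OVCAR3. BMPR1B, a type I receptor, fell by 1.58 on the log2 scale (SE 0.227, adjusted p = 3.21e-05, edgeR), the type II receptor ACVR2B fell by 0.63 and the co-receptor RGMB fell by 0.48. The call of RGMB was lost without OVCAR3 DMSO replicate 3 or olaparib replicate 1 (adjusted p 0.116 and 0.125). ENG, the co-receptor endoglin, rose by 1.34 (SE 0.340, adjusted p = 0.00638, edgeR) at 6 to 34 counts per library. In UWB1.289 the type II receptor BMPR2 fell by 0.32 (SE 0.101, adjusted p = 0.0507, edgeR) and the other 7 tested did not pass. The BMPR2 call was lost without UWB1.289 DMSO replicate 2 or 4 or olaparib replicate 3 (adjusted p 0.145 to 0.167).

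Antagonists outside the cell bind BMP ligands or hold them back at its surface. Of 11 such genes, 7 were tested in OVCAR3, and 5 fell and none rose, against 16% lower and 15.5% higher of all genes. NOG, which encodes noggin, went from 55.2 ± 6.88 to 22.9 ± 3.07 CPM, a log2 fold change of -1.27 (SE 0.121, adjusted p = 1.87e-07, edgeR). SOSTDC1 fell by 1.33, CHRDL1 by 0.86, TWSG1 by 0.39 and CRIM1 by 0.34 on the log2 scale, and some of these calls depended on single libraries. That of TWSG1 was lost without OVCAR3 DMSO replicate 1, 2 or 4 or olaparib replicate 4 (adjusted p 0.111 to 0.155), and without the last its log2 fold change was -0.21. That of CRIM1 was lost without DMSO replicate 2 or 3 or olaparib replicate 2 or 4 (adjusted p 0.116 to 0.235), with -0.20 without the last. In UWB1.289, TWSG1 fell by 0.56 (SE 0.150, adjusted p = 0.0208, edgeR) and GREM1, which encodes gremlin, rose by 0.53 (SE 0.181, adjusted p = 0.0671, edgeR). The GREM1 call was lost without any one library of UWB1.289 other than DMSO replicate 3 or olaparib replicate 2 (adjusted p 0.1001 to 0.194) and with no filter (0.125). The effect of olaparib differed between the lines for NOG, by 1.05 (SE 0.159, adjusted p = 4.29e-05, edgeR), and for CHRDL1, by 1.08 (SE 0.250, adjusted p = 0.00593, edgeR).

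Among 11 inhibitors in the cell or its membrane, 5 of the 10 tested in OVCAR3 rose and 2 fell, against 15.5% higher and 16% lower of all genes. SMAD7, the other inhibitory SMAD, which acts on both the BMP and TGF-β branches, rose from 3.26 ± 0.610 to 9.18 ± 2.51 CPM, a log2 fold change of 1.49 (SE 0.247, adjusted p = 1.50e-04, edgeR). SMURF2, a ubiquitin ligase, rose by 0.58, the corepressors SKI and SKIL by 0.43 and 0.29, and TOB1 by 0.41 on the log2 scale. The phosphatases CTDSP1 and CTDSP2 fell by 0.53 and by 0.59. In UWB1.289, BAMBI, a receptor-like inhibitor without a kinase domain, rose by 1.32 (SE 0.361, adjusted p = 0.0224, edgeR) at 6 to 26 counts per library. BAMBI was not tested in OVCAR3, where it had 20 counts in all with DMSO and 55 with olaparib. Its difference between the lines was -0.05 (SE 0.517, adjusted p = 0.989, edgeR). Also in UWB1.289, TOB1 rose by 0.35, SKI fell by 0.29 and CTDSP2 fell by 0.51. The UWB1.289 call of SKI was lost without any one library other than DMSO replicate 3 or olaparib replicate 1 (adjusted p 0.118 to 0.262), and that of TOB1 without DMSO replicate 1 or olaparib replicate 4 (0.105 and 0.153). For SKI the effect in UWB1.289 was below that in OVCAR3 by an interaction of -0.72 (SE 0.140, adjusted p = 0.00112, edgeR).

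Of the other SMADs, SMAD3 of the TGF-β branch rose in both lines, with a log2 fold change of 1.02 in OVCAR3 (SE 0.0987, adjusted p = 2.12e-07) that was larger than the 0.66 in UWB1.289 (SE 0.0846, adjusted p = 9.45e-06) by an interaction of -0.36 (adjusted p = 0.0884, edgeR). SMAD2 fell by 0.34 in OVCAR3 and SMAD4, the partner of all receptor-activated SMADs, passed the test in neither line.

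Among 6 further BMP-responsive genes, ATOH8 rose in OVCAR3 from 4.04 ± 0.841 to 12.7 ± 3.71 CPM, a log2 fold change of 1.66 (SE 0.230, adjusted p = 2.15e-05, edgeR), and HEY1 rose by 0.87 (SE 0.342, adjusted p = 0.0718, edgeR). The HEY1 call was lost without OVCAR3 DMSO replicate 3 or 4 or olaparib replicate 2 (adjusted p 0.186 to 0.292), and without the last its log2 fold change was 0.57. DLX5 was tested and did not pass. Of the 3 E proteins that ID proteins bind, TCF4 fell in OVCAR3 from 189 ± 37.9 to 68.1 ± 6.21 CPM, a log2 fold change of -1.47 (SE 0.118, adjusted p = 1.78e-08, edgeR), and TCF3 and TCF12 did not pass the test. In UWB1.289 none of these genes that were tested passed without pairing, and ATOH8 and DLX5 were not tested. HEY1 had a log2 fold change of 0.98 there (SE 0.389, adjusted p = 0.125, edgeR). Its difference between the lines was 0.12 (adjusted p = 0.950, edgeR). TCF3 passed in UWB1.289 with the replicate number as a block, with a log2 fold change of -0.22 (SE 0.0849, adjusted p = 0.0951, edgeR) in place of an adjusted p of 0.163.

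**Figure D4:**
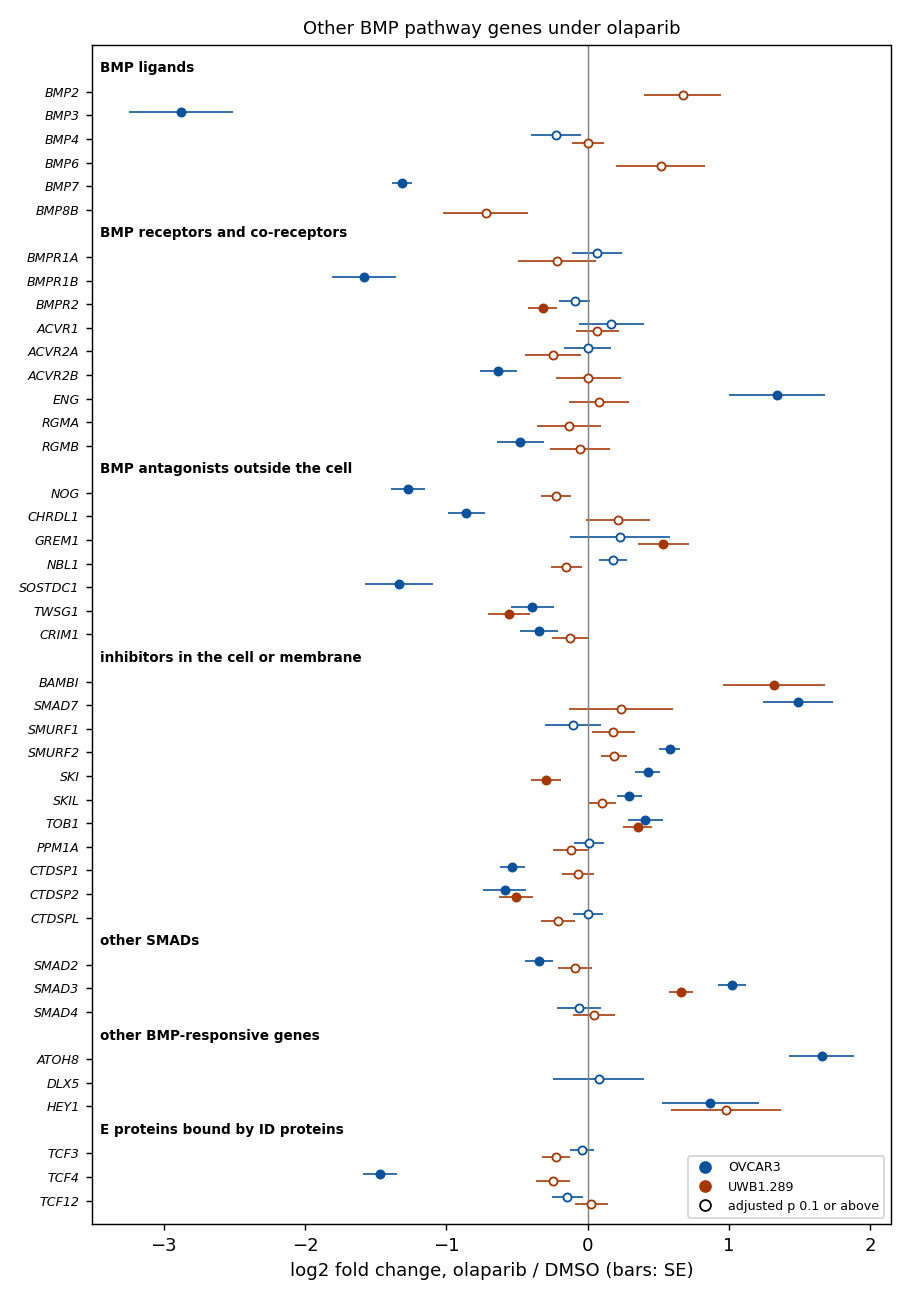
Log2 fold change with SE for olaparib against DMSO in OVCAR3 and UWB1.289 for the other pathway genes tested in at least 1 line, ordered by role. Open symbols did not pass the test and a missing symbol means that the gene was not tested in that line. In OVCAR3 the antagonists NOG, CHRDL1 and SOSTDC1 lie to the left and SMAD7 and ATOH8 to the right of 0.

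The genes most like ID1 and SMAD6 in pattern were found by Pearson's r of log2 CPM over the 16 libraries and 14234 genes. The libraries fall into separate clusters by line, which sets most of r, so r within each line of 8 libraries is given beside it. For ID1 these were AHR (r = 0.994 over both lines, 0.932 in OVCAR3 and 0.379 in UWB1.289), KSR1 (0.993, 0.923 and 0.847) and PERP (0.992, 0.733 and 0.603). For SMAD6 they were GTF2A2 (0.986, 0.844 and 0.845), SOD1 (0.985, 0.959 and 0.562) and INPP5A (0.984, 0.956 and 0.492). The values describe these libraries, which within OVCAR3 share the treatment difference.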

How the data were processed

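RNA was extracted from 16 samples of the lines OVCAR3 and UWB1.289 and made into QuantSeq 3' mRNA libraries. The authors used BBDuk for trimming and STAR 2.7.9a for alignment to hg38, and deposited whole-number counts per gene made with featureCounts 2.0.0, not normalized. Counts of a 3' kit do not scale with transcript length, and neither strand nor the treatment of reads with several positions is given in the sources used here. Total counts per library were 5599571 to 7730228, so genes near 10 counts carry a large counting error. No pair of the 24 pairs of libraries within groups was identical.

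Each comparison was fitted in R 4.3.3 with edgeR 4.0.16 (TMM, filterByExpr, quasi-likelihood test, Benjamini-Hochberg adjustment) on its own 8 libraries, and the difference between the lines on all 16. Intervals (95%) use the SE as computed above, with its limit, and the total degrees of freedom of that fit. On simulated data with 200 changed genes, 200, 200, 200 and 198 were recovered in the 4 comparisons, with 14, 17, 24 and 37 false calls. All planted changes were beyond 2-fold. In the UWB1.289 comparison they lay only in genes with higher average counts than ID3, ID4, SMAD9 and TMEM100 have there. The simulation therefore does not show how often smaller changes, or changes at low counts, would be found. Every simulated gene had the same dispersion, meaning spread beyond counting error. Apart from the planted changes there was no difference between lines, no replicate effect and no outlying library. The counts of false calls therefore need not hold for the real data. Alternatives were DESeq2 1.42.0, its size factors, no filter, stricter thresholds, a replicate block, all 16 libraries in the fit, and leaving out each library in turn. Same-numbered DMSO and olaparib libraries of UWB1.289 deviated together (r between 0.121 and 0.175 over 11276 genes, every pair above 0.1), which was taken as pairing from the data. In OVCAR3 r was between 0.0404 and 0.134. DMSO replicates 2, 3 and 4 of OVCAR3 were most like the olaparib library of the same number, and replicate 1 was most like olaparib replicate 4. The numbers were not taken as pairs in OVCAR3, and a pairing there is not excluded. For both lines, the values given are from fits without pairing unless a block is named.

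The genes named are all 9 genes, the pathway genes that passed the test in at least 1 olaparib comparison, the 3 genes most like ID1 and like SMAD6, and antisense partners. Ligands, DLX5, markers and other genes named beyond these, and the promoters shown, were chosen after their values were seen. The genes and lists were chosen with earlier results of these data known. Promoter sequences are from RefSeq on GRCh38.p14 and gene positions from GENCODE 44.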

Additional observations from a re-analysis of the deposited data

Results flagged for a closer look

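A test for a single sample far from the other 3 of its group was made on the log2 CPM of the 9 genes in the 4 groups. It marked 3 of 36 groups, and chance marks about 5% of groups. TMEM100 was at 2.03 in UWB1.289 olaparib replicate 1 and between -0.59 and -0.34 in the other replicates, SMAD5 was at 5.20 in UWB1.289 olaparib replicate 2 against 5.53 to 5.58, and SMAD6 was at 5.46 in OVCAR3 olaparib replicate 4 against 5.64 to 5.68. Without the marked library TMEM100 passed the test in UWB1.289, as given above, and the calls of SMAD5 in UWB1.289 and SMAD6 in OVCAR3 did not change.

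The effect of olaparib differed between the lines by the interaction test for 3 genes, with values on the log2 scale of UWB1.289 minus OVCAR3. The difference was -2.68 for SMAD9 (edgeR adjusted p = 6.04e-04), -0.61 for ID2 (edgeR adjusted p = 0.00505) and -0.58 for ID1 (edgeR adjusted p = 0.0351). All 3 genes passed the test in OVCAR3 alone with a rise, and none passed in UWB1.289.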

How the results depend on the processing

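Of 531 values recomputed for the 9 genes under the alternatives, 513 kept their direction and their side of the threshold, 8 lost a call, 5 gained one and 5 turned sign. Of 403 for the pathway genes that passed, 372 were kept and 31 lost the call, with none turned. The 8 lost calls were all of SMAD9 between the lines. Under the stricter rule 2 genes of the 9 passed in OVCAR3 in place of 7 and 1 in place of 3 for the difference between the lines, and of the other pathway genes 10 passed in place of 23 in OVCAR3, 1 in place of 8 in UWB1.289 and 21 in place of 38 between the lines. At an adjusted p below 0.05, 5 pathway genes passed in UWB1.289. With the replicate block, 8 in place of 9 genes passed between the lines and 10 in place of 8 pathway genes passed in UWB1.289, where BMP2 and TCF3 gained a call (adjusted p 0.0984 and 0.0951). It changed no other call of the 9 genes and, within either line, of the pathway genes. Leaving out 1 library at a time gave 0 to 1 of the 9 genes in UWB1.289 (1, TMEM100, without olaparib replicate 1) and 5 to 11 pathway genes. Values that turned sign did so between these ends: -0.083 to 0.018 for SMAD5 in OVCAR3, -0.000566 to 0.32 for SMAD6 and -0.12 to 0.043 for ID2 in UWB1.289, and -0.94 to 0.85 for the difference in TMEM100, where -0.94 (adjusted p = 0.230) is without UWB1.289 olaparib replicate 1. None of these 4 passed the test at any of those values, and the cause was not tested. Depth limits SMAD9 and TMEM100 in UWB1.289 most, with 1 to 23 counts per library.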
